A study of Mus musculus with 6 samples.

Results

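The genes described here are the Janus kinases, the STAT transcription factors they act on and the feedback inhibitors of the SOCS family, a set of 10 genes out of the 23413 in the deposited table. They were chosen by name, as the rows whose gene symbol was Jak1, Jak2, Tyk2, Stat3, Stat5a, Stat5b, Socs1, Socs2, Socs3 or Cish, and all 10 were found once each. The RNA came from wild-type (WT) mouse hematopoietic stem cells (HSCs) that had been sorted from marrow according to F4/80, the macrophage surface antigen encoded by Adgre1. The F4/80 negative and the F4/80 positive group had 3 libraries each, all 6 of WT genotype with no treatment named, and a library held RNA of 2000 to 5000 cells. The labels name no age, sex or strain, give no gate for the stem cells, and leave unsaid whether each library is a separate mouse, so the spread behind the p-values may be technical. Values of a group are listed in the order of replicates 1 to 3. The series title names trogocytosis, the transfer of membrane between cells, in connection with the receptor c-Kit, and the comparison asks how stem cells that carry F4/80 differ from those that do not.

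Cytokine receptors without a kinase of their own bind Janus kinases (JAKs), which phosphorylate the receptor and the STAT proteins that dock on it. Phosphorylated STATs pair, enter the nucleus and switch on target genes, among them the genes of the SOCS family, including Cish, whose proteins then bind the receptor or the kinase and end the signal. In blood-forming cells several cytokine receptors signal through JAK2 and the STAT5 proteins, and SOCS transcripts are commonly read as a trace of recent cytokine signalling. The kinases and STATs are regulated largely by phosphorylation, which transcript counts do not show.

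Transcripts of 3 of the 4 feedback inhibitors were lower in the F4/80 positive libraries, while the transcripts of the STAT5 factors differed little between the groups. Cish was 2.57-fold lower, Socs2 2.45-fold and Socs1 1.77-fold, Stat3 and Jak1 were lower by smaller factors of 1.22 and 1.18, and the fitted ratios of positive to negative for Tyk2, Stat5a and Stat5b were 0.996, 1.01 and 1.08. All 10 genes passed the filter on low counts. By edgeR's quasi-likelihood test with Benjamini-Hochberg adjustment over all 14451 tested genes, 5 of the 10 were lower at an adjusted p below 0.05 and 0 were higher, where 20.5% of all tested genes were called in either direction, 10.9% lower and 9.65% higher. The 3 called inhibitors stand among 4 inhibitors, against 1 of 3 kinases and 1 of 3 STATs. Over the 10 genes the median log2 fold change was -0.47, against -0.03 over all tested genes. Libraries of the 2 groups did not overlap for the same 5 genes, against 40.6% of all tested genes. The number of genes called lower fell to 2 (Socs2 and Cish) without F4/80 positive replicate 1 or without positive replicate 3, to 3 without negative replicate 3, and to 1 (Socs2) when replicate 3 was left out of both groups. With the replicate block described for Socs3 the number was 7, with Jak2 and Socs3 also called lower.

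**Figure D1:**
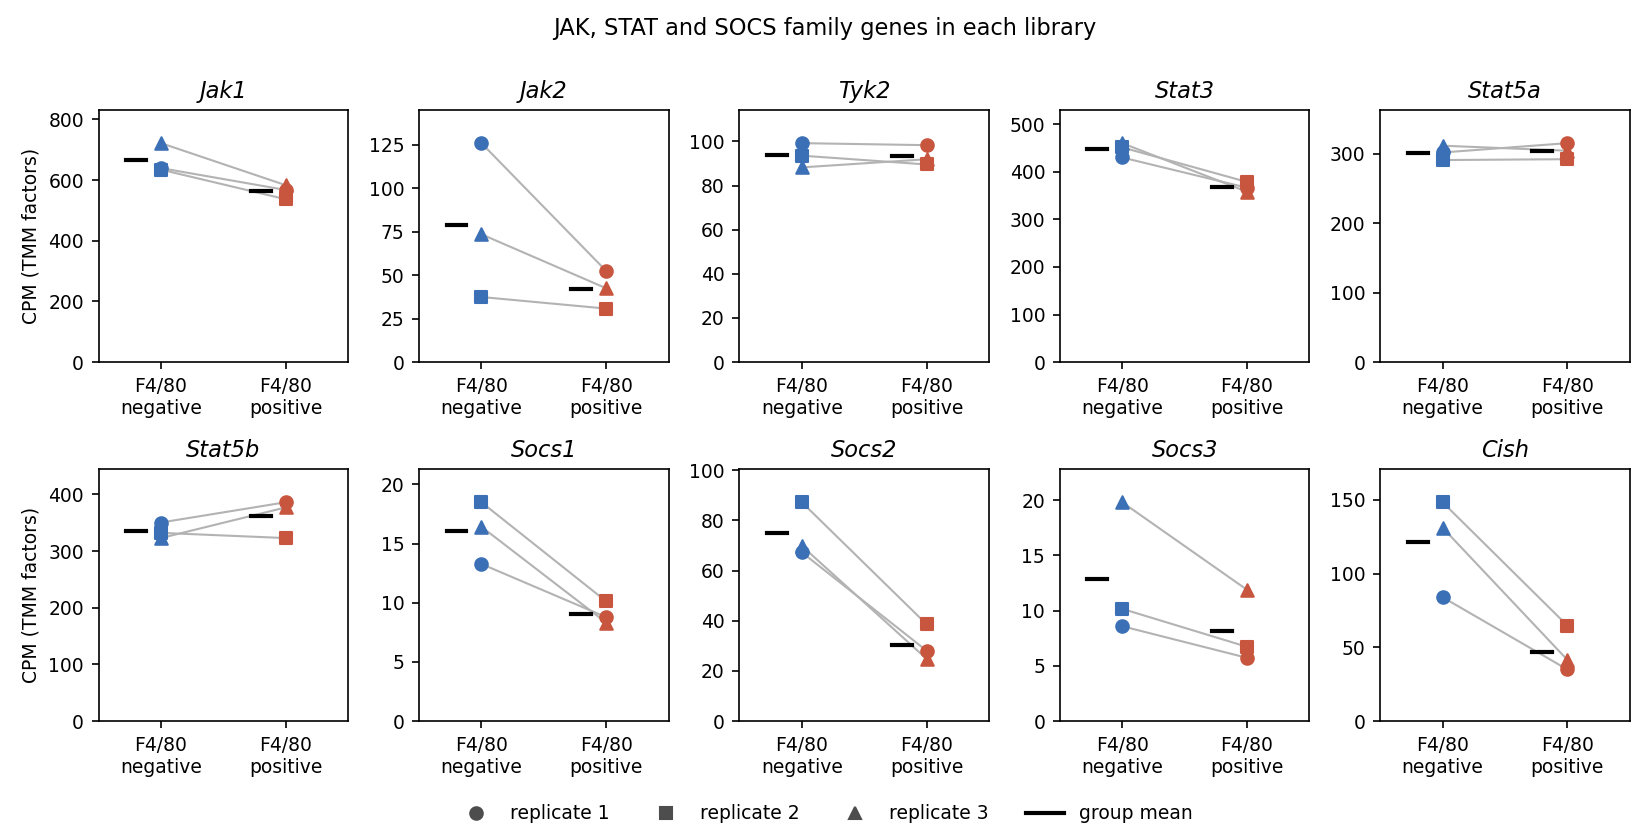
CPM (counts scaled to library size with TMM factors, linear axes from 0) of the 10 genes in each library, with F4/80 negative libraries in blue, F4/80 positive libraries in red, marker shapes for the replicate number, grey lines joining libraries of the same number and black bars for group means. Jak1, Stat3, Socs1, Socs2 and Cish have no overlap between groups, Jak2 and Socs3 are lower in the positive library of each pair but overlap between groups, and Tyk2, Stat5a and Stat5b overlap.

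Total counts ranged from 18637526 to 21042379 per library. As a check of the sort, Adgre1 was at 2.88, 1.41 and 2.62 CPM across negative libraries and at 35.9, 39.0 and 21.3 CPM across positive libraries, a log2 fold change of 3.79 (edgeR adjusted p = 0.000659). Kit, which encodes c-Kit, had a log2 fold change of -0.26 (edgeR adjusted p = 0.159) and was called lower with the replicate block described for Socs3 (adjusted p = 0.00415). The labelled cell type was checked against stem cell markers, all 11 of which were detected in both groups. Their summed level was 4237 to 5267 CPM in negative and 2893 to 3271 CPM in positive libraries, with 8 of 11 lower and 0 higher. All 15 macrophage markers were higher, with a sum of 62.6 to 84.4 CPM in negative and 387 to 833 CPM in positive libraries, and all 12 proliferation markers were higher, with a sum of 2173 to 2785 and 4668 to 4955 CPM. Of the 9 megakaryocyte and platelet markers 7 were tested and 5 were higher, with sums of 537 to 643 and 1335 to 1852 CPM. Of the 9 erythroid markers 1 was higher and 1 lower, with sums of 517 to 1079 and 499.8 to 810 CPM, and of the 11 monocyte and neutrophil markers 1 was lower, with sums of 286 to 1107 and 459 to 579 CPM. None of those lists had a marker at 0 in every library of a group. The macrophage, proliferation and platelet sums were thus higher in positive libraries, and the stem cell sum was lower, as were Cish, Socs2 and Socs1. The part of these lists in the results was not tested. In sorted bulk samples a smaller share of cells expressing a gene and less of its RNA per cell cannot be told apart.

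Cish, the SH2-domain inhibitor that STAT5 induces, had the largest fitted fold change of the 10, an order that changed when single libraries were left out. Without negative replicate 3 the log2 fold change was -1.34 for Socs2 and -1.30 for Cish, without positive replicate 1 it was -1.23 and -1.19, and without negative replicate 2 it was -1.24 for Jak2 and -1.19 for Cish. Cish (ENSMUSG00000032578, GRCm39 chromosome 9, 107173225 to 107179983, plus strand) was at 84.0, 148 and 131 CPM across negative libraries and at 35.0, 64.8 and 41.5 CPM across positive libraries. The highest positive library stayed below the lowest negative one, and replicate 2 was the highest of its group on both sides. The means were 121 ± 33.3 and 47.1 ± 15.6 CPM (SD, n = 3 per group), a log2 fold change of -1.36 (SE 0.26, edgeR adjusted p = 0.00894). Within the same-numbered pairs the log2 CPM differed by -1.26, -1.19 and -1.66. The call was lost without both libraries of replicate 3 (log2 fold change -1.22, edgeR adjusted p = 0.121).

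Socs2, an inhibitor best known for limiting growth hormone signalling and also induced by STAT5, followed closely. Socs2 (ENSMUSG00000020027, GRCm39 chromosome 10, 95221224 to 95253042, minus strand) was at 67.2, 87.2 and 69.8 CPM across negative libraries and at 28.1, 38.6 and 24.8 CPM across positive libraries. No positive library reached the negative range, and replicate 2 was again the highest of each group. The means were 74.7 ± 10.9 and 30.5 ± 7.21 CPM (SD, n = 3 per group), a log2 fold change of -1.29 (SE 0.18, edgeR adjusted p = 0.00220). Of the 10 genes, Socs2 alone was called under every alternative tried, with adjusted p up to 0.0333. The ratio of Cish to Socs2 in the deposited FPKM was 2.39 ± 0.482 in negative and 2.28 ± 0.367 in positive libraries (SD, n = 3 per group), with overlapping ranges.

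Socs1, an inhibitor of JAK kinase activity that limits interferon signalling, was also lower in the positive libraries. Socs1 (ENSMUSG00000038037, GRCm39 chromosome 16, 10600104 to 10603400, minus strand) had 272 to 353 counts in negative and 164 to 182 counts in positive libraries. It was at 13.3, 18.5 and 16.4 CPM across negative libraries and at 8.79, 10.1 and 8.32 CPM across positive libraries, again without overlap. The log2 fold change was -0.82 (SE 0.18, edgeR adjusted p = 0.0162), a call that did not survive leaving out positive replicate 1 (adjusted p = 0.0584) or positive replicate 3 (0.0644), or leaving out a replicate number from both groups (up to 0.134).

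Socs3, the inhibitor of receptors that signal through gp130 and of the granulocyte colony-stimulating factor receptor, did not pass the test. Socs3 (ENSMUSG00000053113, GRCm39 chromosome 11, 117856905 to 117860873, minus strand) was at 8.59, 10.2 and 19.8 CPM across negative libraries and at 5.73, 6.73 and 11.9 CPM across positive libraries. The third replicate was the highest library of each group, and the groups overlapped because positive replicate 3 exceeded negative replicates 1 and 2. Its log2 fold change, -0.20 without negative replicate 3, was -0.66 (SE 0.37, edgeR adjusted p = 0.240, exact two-sided permutation p = 0.3). With the replicate number as a block, so that each positive library is set against the negative library of its own number, Socs3 was called lower (log2 fold change -0.64, SE 0.17, edgeR adjusted p = 0.0212). Its pairs differed by -0.57, -0.59 and -0.73 in log2 CPM.

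The same 2 libraries stood apart in immediate early genes, which respond within minutes to growth factors and to handling of cells. The 12 genes of that list summed to 306, 278 and 2282 CPM across negative libraries and to 261, 238 and 977 CPM across positive libraries. None of the 10 tested among them was called between groups. Whether handling had a part in the level of Socs3 was not tested.

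**Figure D2:**
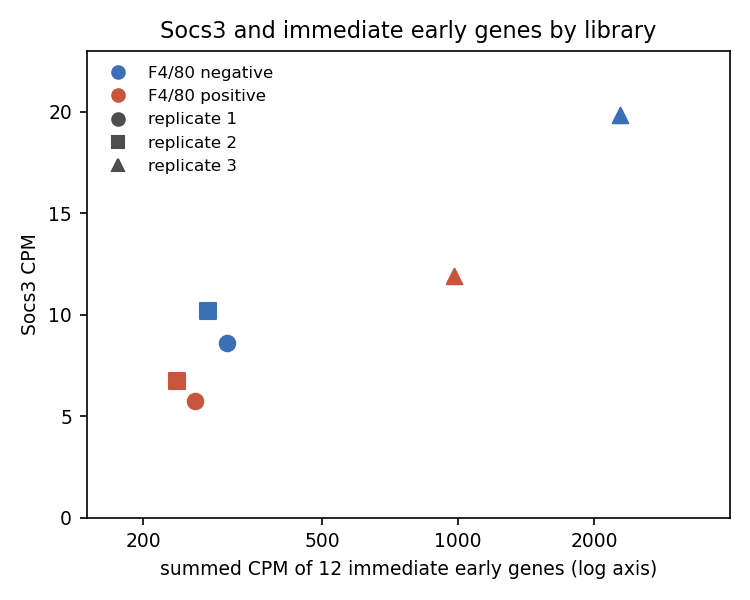
Socs3 level (CPM, linear axis) against the summed level of 12 immediate early genes (CPM, log axis) in the 6 libraries, with group by colour and replicate number by marker shape. Both libraries of replicate 3 lie to the right, at 2282 and 977 CPM on the horizontal axis, and hold the highest Socs3 level of their group, 19.8 and 11.9 CPM.

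STAT3 and STAT5 dimers recognise the motif TTCNNNGAA, which is its own reverse complement and so reads the same on both strands. RefSeq promoter windows (build GRCm38.p6, 250 bases before to 50 after an annotated transcript start) were matched for 9 of the 10 genes, all except Socs2. Only the windows of Cish and Socs3 held the motif, out of 11 windows of the 9 genes, against 8.3% of 32851 windows of all genes. They are shown because they place that motif beside the start of an inhibitor gene, with the matches in capitals (Cish chr9:107296409-107296708, plus strand, and Socs3 chr11:117969317-117969616, minus strand).
Cish: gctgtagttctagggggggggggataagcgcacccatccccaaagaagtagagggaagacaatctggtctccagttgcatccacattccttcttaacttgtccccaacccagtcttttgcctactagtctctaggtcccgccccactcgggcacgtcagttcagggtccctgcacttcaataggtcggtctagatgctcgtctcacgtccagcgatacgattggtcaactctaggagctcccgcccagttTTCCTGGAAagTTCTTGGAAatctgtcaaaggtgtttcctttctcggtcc
Socs3: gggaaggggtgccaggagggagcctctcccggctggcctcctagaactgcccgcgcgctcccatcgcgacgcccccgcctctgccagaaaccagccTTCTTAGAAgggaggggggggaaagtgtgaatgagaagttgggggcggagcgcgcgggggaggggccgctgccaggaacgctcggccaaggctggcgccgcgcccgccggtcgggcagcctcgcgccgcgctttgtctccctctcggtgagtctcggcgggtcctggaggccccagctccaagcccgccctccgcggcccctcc
The matches in Cish, TTCCTGGAA and TTCTTGGAA, begin at bases 1 and 12 counted from the transcript start, and the match in Socs3, TTCTTAGAA, begins 154 bases before it. A match describes the letters of the window and is not evidence of binding in these cells. The Socs1 window, of a gene called lower, held no match, and Socs3, whose window held one, was not called without the block.

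Of the kinases, Jak1 alone passed the test, and only by a narrow margin. Jak1 serves the receptors for interferons, for cytokines that use gp130 and for those that use the common gamma chain. Jak1 (ENSMUSG00000028530, GRCm39 chromosome 4, 101009564 to 101122479, minus strand) was at 639, 634 and 721 CPM across negative libraries and at 567, 536 and 583 CPM across positive libraries. The groups did not overlap, and the gap between the lowest negative and the highest positive library was smaller than the range within the negative group. The log2 fold change was -0.24 (SE 0.07, edgeR adjusted p = 0.0475). The call was lost under 11 of 15 alternatives, including each of the 6 that leave out 1 library, with adjusted p up to 0.185. In the authors' deposited table Jak1 had a log2 fold change of -0.23 and an adjusted p of 0.0615.

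Jak2, the kinase of the erythropoietin and interleukin-3 receptors, varied more between libraries of a group than any other of the 10 genes in the negative group. Jak2 (ENSMUSG00000024789, GRCm39 chromosome 19, 29229228 to 29290480, plus strand) was at 126, 37.4 and 73.5 CPM across negative libraries and at 52.4, 30.8 and 42.4 CPM across positive libraries. Negative replicate 2 fell inside the positive range, and in both groups replicate 1 was the highest and replicate 2 the lowest. The coefficient of variation was 56.4% in negative and 25.9% in positive libraries, against 7.38% and 4.19% for Jak1. Its log2 fold change was -0.92 with a standard error of 0.38, short of the threshold (edgeR adjusted p = 0.119, exact two-sided permutation p = 0.3). With the replicate block Jak2 was called lower (log2 fold change -0.80, SE 0.16, edgeR adjusted p = 0.00847). It was also called lower without negative replicate 2 (log2 fold change -1.24, adjusted p = 0.0165) or without both libraries of replicate 2 (log2 fold change -1.06, adjusted p = 0.0389). Without negative replicate 1 the log2 fold change was -0.40.

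Tyk2, the kinase of the type I interferon and interleukin-12 receptors, had nearly equal levels. Tyk2 (ENSMUSG00000032175, GRCm39 chromosome 9, 21015364 to 21042539, minus strand) was at 99.2, 93.5 and 88.2 CPM across negative libraries and at 98.3, 89.5 and 91.9 CPM across positive libraries. The ranges overlapped, the log2 fold change was -0.01 with a 95% interval from -0.21 to 0.19 (edgeR adjusted p = 0.968), and its sign changed with the scaling. The ratio of Jak1 to Tyk2 in the deposited FPKM was 6.12, 6.44 and 7.77 across negative libraries and 5.48, 5.69 and 6.02 across positive libraries, a measure within each library that does not depend on the scaling between libraries.

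**Figure D3:**
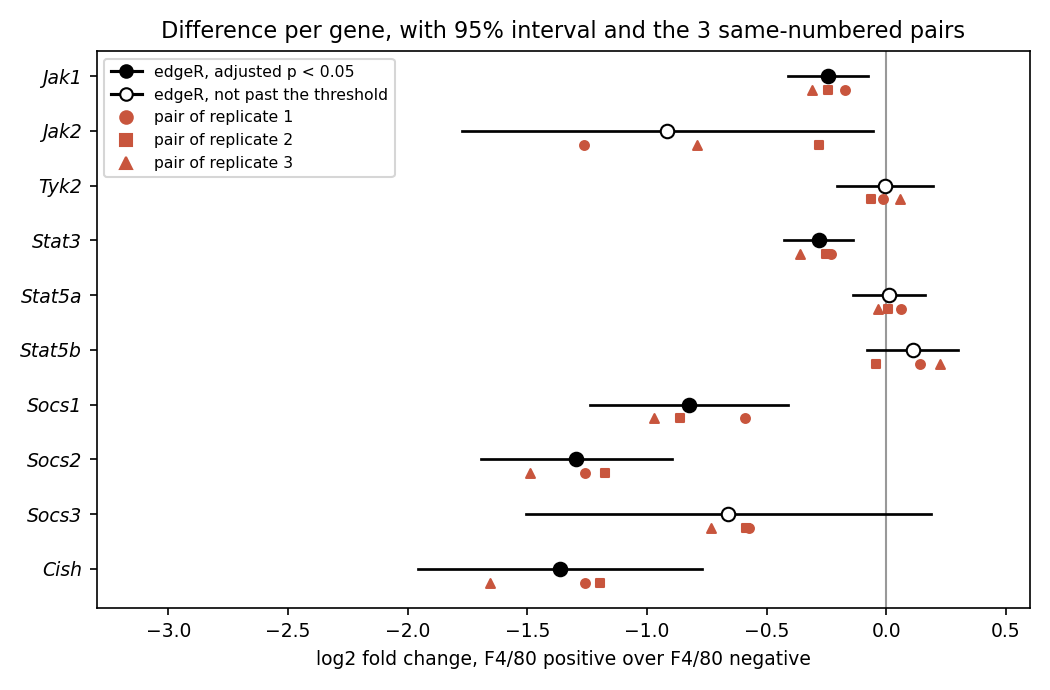
Log2 fold change of F4/80 positive over F4/80 negative libraries for the 10 genes. Large circles are edgeR estimates with 95% intervals, filled where the adjusted p is below 0.05, and small red markers are the differences in log2 CPM within the 3 same-numbered pairs. The inhibitors lie to the left, from -0.66 for Socs3 to -1.36 for Cish, and Tyk2, Stat5a and Stat5b lie around 0.

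Stat3, the factor activated through gp130 and the granulocyte colony-stimulating factor receptor, was the STAT that fell. Stat3 (ENSMUSG00000004040, GRCm39 chromosome 11, 100775924 to 100830366, minus strand) was at 430, 451 and 460 CPM across negative libraries and at 367, 379 and 358 CPM across positive libraries. The spread within each group was small, 447 ± 15.5 and 368 ± 10.3 CPM (SD, n = 3 per group), and the groups did not overlap. The log2 fold change was -0.28 (SE 0.06, edgeR adjusted p = 0.0169). The call was lost without negative replicate 3 (adjusted p = 0.0564), positive replicate 1 (0.0590) or positive replicate 3 (0.0772), and when a replicate number was left out of both groups (up to 0.145).

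Stat5a and Stat5b, the factors that JAK2-bound receptors activate, did not pass the test. Stat5a (ENSMUSG00000004043, GRCm39 chromosome 11, 100750177 to 100775995, plus strand) was at 302, 291 and 312 CPM across negative libraries and at 315, 292 and 305 CPM across positive libraries. Stat5b (ENSMUSG00000020919, GRCm39 chromosome 11, 100671557 to 100741550, minus strand) was at 350.3, 332 and 323 CPM across negative libraries and at 386, 323 and 377 CPM across positive libraries. Both ranges overlapped between the groups. The log2 fold changes were 0.01 for Stat5a, with a 95% interval from -0.14 to 0.16, and 0.11 for Stat5b, with an interval from -0.08 to 0.30, and that of Stat5a changed sign with no composition factor (-0.06). The intervals leave room for a rise of Stat5b by a factor of up to 1.23.

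The STAT5 genes are close paralogs, so the split of reads between them is uncertain. Their sum was 637 ± 14.7 CPM in negative and 666 ± 45.2 CPM in positive libraries (SD, n = 3 per group). Stat3 and Stat5a face each other on chromosome 11 and share 72 bases at their 3' ends. The kit named in the labels is stranded, but whether strand was used in counting is not stated, so reads in those bases are uncertain. The ratio of Cish to Stat5a in the deposited FPKM was 0.309, 0.567 and 0.468 across negative libraries and 0.123, 0.246 and 0.152 across positive libraries, with no overlap.

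The order of levels among the 10 genes was read per length, from the deposited FPKM. In negative libraries Jak1 stood highest with a mean of 91.1 FPKM, followed by Stat5b with 59.9, Stat3 with 46.5 and Stat5a with 41.9, and no ranges of neighbours among these overlapped. Cish with 18.7, Jak2 with 15.5 and Tyk2 with 13.5 FPKM came next, with overlapping ranges of Cish with Jak2 and of Jak2 with Tyk2. Socs2 with 7.77, Socs1 with 5.47 and Socs3 with 4.40 FPKM were the lowest, and the ranges of Socs1 and Socs3 overlapped.

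In positive libraries the order differed. Stat5a with 42.6 FPKM stood above Stat3 with 38.5. Tyk2 with 13.6 stood above Jak2 with 8.31 without overlap, and Cish with 7.32 FPKM stood below both. The ranges of Stat5a and Stat3 did not overlap in either group, so their order reversed between the groups beyond the spread of these libraries. The ranges of Cish and Jak2 overlapped in both groups. Socs2, Socs1 and Socs3 had means of 3.19, 3.11 and 2.81 FPKM, and neighbours among them overlapped.

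**Figure D4:**
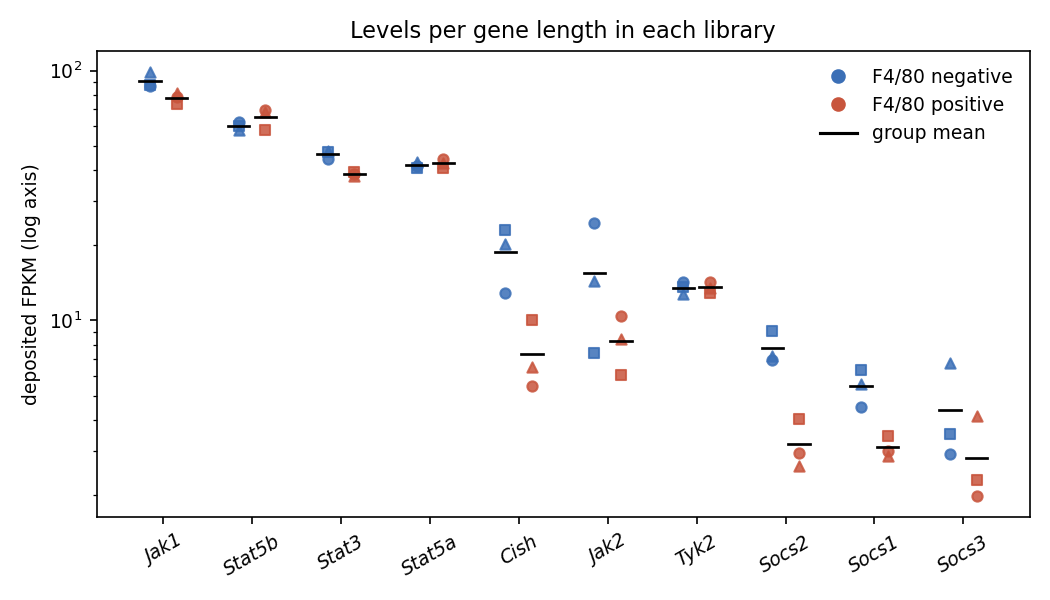
Deposited FPKM (log axis) of the 10 genes, ordered by their mean in F4/80 negative libraries, with 1 point per library, marker shapes for the replicate number and bars for group means. Group means of kinases and STATs span 91.1 to 13.5 FPKM in the negative group. Means of the SOCS genes proper lie between 7.77 and 4.40 FPKM there and between 3.19 and 2.81 FPKM in the positive group. Single negative libraries of the 2 classes overlap, as Socs2 reached 9.12 FPKM and Jak2 fell to 7.41 FPKM.

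Other genes of the pathway, taken from 7 lists chosen with earlier results of these data known, were lower more often than higher. Of 97 listed genes 90 were found in the table and 80 were tested, of which 29 fell and 2 rose, against 10.9% lower and 9.65% higher among all tested genes. The number that fell was 18 without positive replicate 1 or without positive replicate 3 and 7 without both libraries of replicate 3, and the number that rose was 0 or 1 without any single library. Among the other JAK and STAT genes 3 of 6 fell. Jak3, the kinase of the common gamma chain, was at 299.8, 319 and 313 CPM across negative libraries and at 232, 254 and 248 CPM across positive libraries (log2 fold change -0.35, SE 0.07, edgeR adjusted p = 0.0105). Irf9, a DNA-binding partner of STATs in interferon signalling, had a log2 fold change of -0.60, and its call was lost without positive replicate 1 (edgeR adjusted p = 0.0530).

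Socs5, a SOCS protein known to act on interleukin-4 and epidermal growth factor receptor signalling, was the one further SOCS gene of 4 to fall. It was at 84.7, 81.7 and 99.8 CPM across negative libraries and at 47.1, 36.8 and 50.3 CPM across positive libraries, with no overlap. The log2 fold change was -0.99 (SE 0.14, edgeR adjusted p = 0.00236). The other members of that list lay between -0.47 and 0.20 on the log2 scale, short of the threshold.

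Of 29 tested cytokine receptors 16 fell and 0 rose, against 10.9% lower and 9.65% higher among all tested genes. The median log2 fold change of the receptors was -0.42. Il6st, which encodes gp130, was at 49.0, 71.4 and 90.0 CPM across negative libraries and at 35.1, 35.5 and 36.5 CPM across positive libraries (log2 fold change -0.97, SE 0.19, edgeR adjusted p = 0.0104). Csf3r, the granulocyte colony-stimulating factor receptor, had a log2 fold change of -0.50, Il4ra, a receptor chain for interleukin-4, of -0.78, Il21r of -0.78 and Csf2rb2, a beta chain for interleukin-3, of -0.998. Csf2rb2 and Csf2rb are near-identical copies, so their split of reads is uncertain.

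The lowest fold changes among the receptors belonged to genes at low level that lymphoid cells use. Il7r was at 2.10, 2.46 and 1.59 CPM across negative libraries and at 0.268, 0.222 and 0 CPM across positive libraries, and Il2rb 2.15, 2.62 and 1.23 CPM against 0, 0 and 0.245 CPM. A floor of 3 counts corresponds to 0.146 to 0.167 CPM in these libraries and covers counting error only. The log2 fold change fitted to Il2rb, -4.44, was -8.26 without positive replicate 3, the one positive library with a count. Both genes were picked for mention after their values were seen. Beside them, the T cell genes Cd3d, Cd3e and Cd3g were at 0 in all positive libraries and between 0.154 and 1.10 CPM in negative libraries. Trac, another T cell gene, overlapped between groups. It was at 0.488, 0.419 and 0.308 CPM across negative libraries and at 0.0536, 0 and 0.440 CPM across positive libraries. Of the 11 B, T and NK cell markers 6 were tested, with 1 higher and 1 lower. The 11 markers summed to 158 to 253 CPM in negative and 345 to 368 CPM in positive libraries, most of it Nkg7. Their part in these receptors was not tested.

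**Figure D5:**
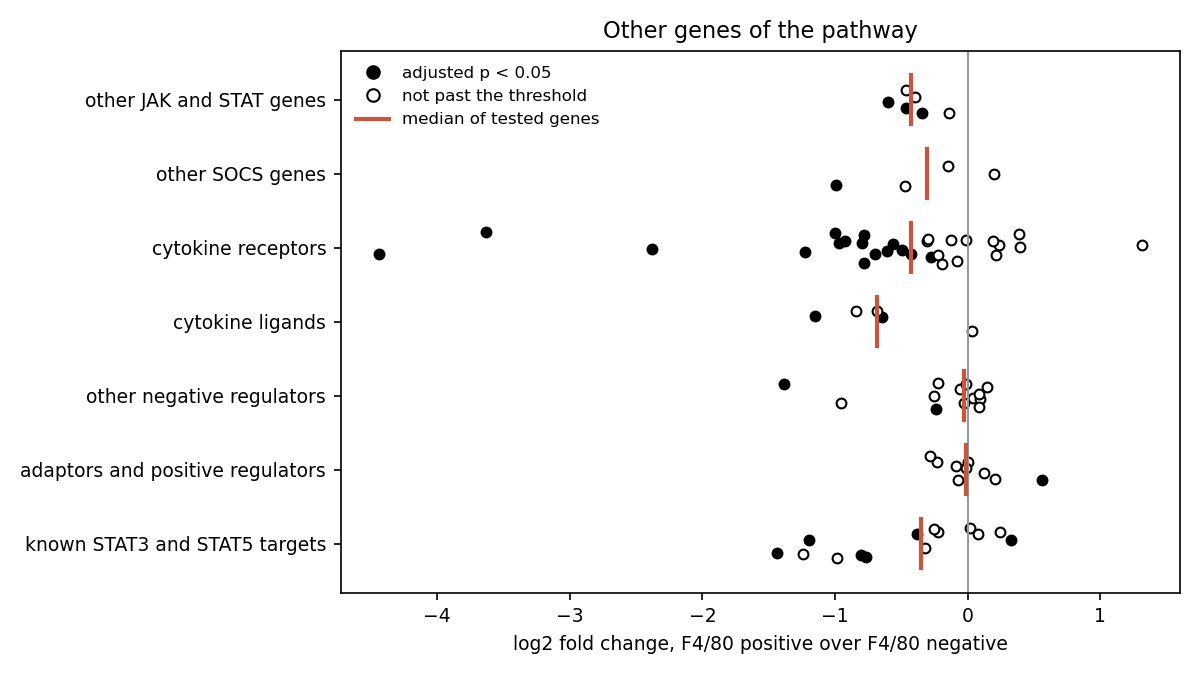
Log2 fold changes of the 80 tested genes in 7 lists of the pathway, with filled points for an adjusted p below 0.05 and a red bar for the list's median. Medians run from -0.68 for ligands and -0.43 for other JAK and STAT genes to -0.01 for adaptors, and the leftmost receptor, Il2rb, lies at -4.44.

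Of 5 tested ligands 2 fell, Clcf1, a ligand that signals through gp130, with a log2 fold change of -1.15, and Il15 with -0.64, a call lost without positive replicate 1 (adjusted p = 0.0505). Of 13 other negative regulators 2 fell. Among all tested genes 10.9% were lower, so these small counts say little about the ligands or the negative regulators as lists. Sh2b3, the adaptor LNK that restrains signalling from c-Kit, was at 86.1, 50.5 and 71.9 CPM across negative libraries and at 31.9, 20.0 and 27.9 CPM across positive libraries, with no overlap. Its log2 fold change was -1.38 (SE 0.22, edgeR adjusted p = 0.00425), and replicate 2 was the lowest of each group. Ptprc, which encodes the phosphatase CD45, had a log2 fold change of -0.24, a call that was lost without any 1 of the 6 libraries (adjusted p up to 0.151). Ptpn6, the phosphatase SHP-1, had a log2 fold change of -0.22 (edgeR adjusted p = 0.0868) and passed with the replicate block (adjusted p = 0.0183).

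Of 9 adaptors and positive regulators 1 was called higher and 0 lower, near the 9.65% called higher among all tested genes. The 1 called was Sos1, a guanine nucleotide exchange factor for Ras, with a log2 fold change of 0.56 (edgeR adjusted p = 0.0440). This call was lost without negative replicate 2, negative replicate 3 or any positive library (adjusted p up to 0.111), and without both libraries of any replicate number (up to 0.212). Of 14 known targets of STAT3 or STAT5 5 fell and 1 rose, against 10.9% lower and 9.65% higher among all tested genes. Pim2, a survival kinase, was at 97.3, 99.6 and 98.1 CPM across negative libraries and at 57.7, 60.3 and 50.9 CPM across positive libraries (log2 fold change -0.80, SE 0.09, edgeR adjusted p = 0.00128). Among the rest, the cyclin gene Ccnd2 had a log2 fold change of -0.38, Bcl3 of -0.77 and Cebpd of -1.44. Their calls were lost without single libraries, that of Ccnd2 without negative replicate 2 or 3 or positive replicate 1 or 3, that of Bcl3 without any library except negative replicate 2, and that of Cebpd without negative replicate 3 or positive replicate 1 or 3. Bcl2l1, the survival gene that encodes BCL-XL, rose with a log2 fold change of 0.33 (edgeR adjusted p = 0.0320), a call lost without any 1 of the 6 libraries (adjusted p up to 0.0985). Mcl1, a survival gene of the same family, fell with a log2 fold change of -1.19 (edgeR adjusted p = 0.0434), from 177, 55.1 and 105 CPM across negative libraries to 55.5, 39.3 and 52.5 CPM across positive libraries. Its groups overlapped, and its call was lost without any library except negative replicate 2, with -0.70 without negative replicate 1. Bcl2l1 and Mcl1 were named after their values were seen.

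Cish was taken as the reference for its fold change over all 6 libraries. Across them the genes whose log2 CPM followed it most closely, out of 10423 compared, were Il2rg, Lrrc41 and Hpcal1, with Pearson's r of 0.9956, 0.9949 and 0.9945. Il2rg, the common gamma chain of several interleukin receptors, was at 98.6, 127 and 129 CPM across negative libraries and at 64.0, 86.9 and 67.5 CPM across positive libraries. With 6 points that share the contrast between groups, many genes reach such values, and the likeness is a description. The log2 fold changes of Il2rg, Lrrc41 and Hpcal1 were -0.70, -0.21 and -0.59, smaller than that of Cish. Lrrc41 was not called (edgeR adjusted p = 0.124), and the calls of Il2rg and Hpcal1 were lost without positive replicate 1 or positive replicate 3, that of Hpcal1 also without negative replicate 3.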

How the data were processed

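The authors deposited 1 table for the series. Only its raw counts per gene, whole numbers as deposited, were tested. The deposited normalized signal is the count divided by 1 factor per library and was not used, nor were the authors' group means of it. The deposited FPKM served to compare levels between genes. Log2 fold changes and p-values of the authors' own comparison are quoted once, as theirs. HISAT2 2.0.5, DESeq2 and the build GRCm39 (mm39) are named in the submitters' processing notes without a role. No source used here names the counter, the annotation release, filters or the use of strand.

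The test was run with edgeR 4.0.16 under R 4.3.3 (filterByExpr, minimum count 10 and minimum total 15, TMM factors, glmQLFit and glmQLFTest without covariates), on all 6 libraries and 14451 genes that passed. Genes with a p below 0.05 after Benjamini-Hochberg adjustment over all of them are called, and CPM are scaled by the TMM factors. Log2 CPM for pairs and for the exact two-sided permutation tests use a prior count of 2, and 3 against 3 libraries cannot go below p = 0.1. Standard errors and 95% intervals are those implied by the F test. The test was checked on simulated counts. Promoter sequences are from RefSeq, build GRCm38.p6, and no coordinate of that build was set against GRCm39.

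The members and lists were chosen with earlier results of these data known. The text names the 10 members, Adgre1 and Kit, up to 4 called genes per list by p, fixed genes (Il6st, Csf3r, Ptpn6, Sh2b3), the 3 genes most like the called member with the largest change (average log2 CPM of at least 2), and genes outside this rule where said or to complete a list. Some genes that the rule names are left out. No comparison of protein sequences was made.

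Groups share replicate numbers, and the labels name the libraries 4, 5 and 7 in both. Deviations from the group means correlated between same-numbered libraries by 0.214, 0.284 and 0.256 over tested genes, each above the limit of 0.1 set for treating the numbers as pairs, so the fit with the replicate block is quoted where it changes a call. Within a group no pair of libraries agreed within sampling noise (chi-square per degree of freedom 11.0 to 22.9), so each was counted as 1 replicate. Separate preparations of the same cells could also differ by more than sampling noise, so this does not show that the libraries are separate mice. Alternatives were DESeq2 size factors (RLE) in edgeR, no composition factor, no low-count filter, DESeq2 1.42.0, limma-voom (limma 3.58.1), the replicate block, leaving out each library, and leaving out both libraries of a replicate number.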

Additional observations from a re-analysis of the deposited data

How the results depend on the processing

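Across the 15 alternatives 0 of the 10 genes were called higher. The number called lower, 5, was 4 with RLE factors or no low-count filter, 5 with no composition factor, DESeq2 or limma-voom, 7 with the replicate block, 2 to 5 without single libraries, and 2, 3 and 1 without both libraries of replicates 1, 2 and 3. In these last fits 2 libraries per group remain. Cish, Socs1, Socs2, Socs3, Jak1, Jak2, Stat3 and Stat5b kept their direction throughout. Tyk2 turned to 0.00 with RLE factors (0.0016 before rounding) and DESeq2 (0.0015), to 0.0065 with no low-count filter, to 0.038 without both libraries of replicate 2, and lay between -0.043 and 0.036 without single libraries. Stat5a turned to -0.063 with no composition factor and to -0.013 without both libraries of replicate 1, and lay between -0.011 and 0.044 without single libraries. The cause of these changes was not tested.

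Of the other pathway genes 29 fell, and this number was 18 to 26 without single libraries and 13, 15 and 7 without both libraries of replicates 1, 2 and 3. The 2 that rose became 3 with DESeq2 or the replicate block, 1 with no low-count filter, 0 with no composition factor, 0 to 1 without single libraries and 0 without both libraries of any replicate number. Over all genes 1395 were higher and 1572 lower. These counts became 2105 and 2429 with the replicate block, and 656 to 1437 and 802 to 1612 without single libraries. They became 511 and 607, 827 and 959, and 380 and 413 without both libraries of replicates 1, 2 and 3. With no composition factor they were 942 and 1970, so the share called higher moved from 47.0% to 32.3%. The replicate block changed the call of Jak2, Socs3, Ptpn6 and Kit, and of no other named gene.

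Depth limits Socs1 and Socs3 most, with 164 to 353 and 107 to 386 counts per library.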
